A study of Mus musculus with 12 samples.

Results

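Unilateral ureteral obstruction (UUO) closes the ureter of a single kidney and leaves the other, contralateral (CL) kidney draining, so that the effect of obstruction can be read between the kidneys of a mouse. The comparison described here is UUO against CL in the cortex of Acot12-/- mice on day 7, and it rests on 6 of the 12 libraries of the study, 3 from UUO and 3 from CL kidneys. They were chosen by their labels for genotype and kidney. The mice were C57BL/6 (C57BL/6N in the study's methods) males aged 6 to 7 weeks with a global knockout of Acot12, made by a mutant allele that an RNA-guided endonuclease induced, and both groups carry it in every cell. The other 6 libraries come from wild type mice of the same strain, with 3 UUO and 3 CL kidneys, and are used here only to ask where the knockout differs. Each library is bulk RNA from cortex, and replicates 1, 2 and 3 of UUO and CL are called mouse 1, 2 and 3.

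The tubules make up most of the cortex. Proximal tubule cells reclaim glucose, amino acids, phosphate and filtered protein, burn fatty acids in mitochondria and peroxisomes to pay for this transport, and make glucose. When urine cannot drain, tubule cells lose these programs and take on an injured state, leukocytes enter and fibroblasts lay down matrix, which is why UUO is a standard model of kidney fibrosis. Acot12 encodes an acyl-CoA thioesterase, an enzyme that splits acyl-CoA into free fatty acid and CoA and prefers acetyl-CoA.

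The values are FPKM, which divide the fragments of a gene by transcript length and by library depth. Low values fall on whole steps that give the depth of a library, which was 13800000 to 16200000 fragments for the knockout's CL kidneys and 18500000 to 21600000 for its UUO kidneys, and 12300000 to 13700000 and 21500000 to 22900000 for those of wild type. UUO libraries are thus deeper than CL libraries, and 7050 to 7234 genes were listed at 0 in the knockout's CL libraries against 5954 to 5988 in its UUO libraries. Pearson correlations between replicates over genes were 0.939 to 0.984 in CL and 0.973 to 0.989 in UUO. CL replicate 2 stood apart with base composition: the difference of log2 values between CL replicates 1 and 2 followed the GC content of genes with a Spearman rho of 0.778 over 10050 genes, against -0.239 between replicates 1 and 3 and -0.169 to -0.032 among the UUO libraries. Results that rest on this library are given without it. The labels number the replicates without saying that they came from separate mice, so p-values measure only the spread between these libraries, which may be technical.

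Acot12 (ENSMUSG00000021620.4, chr13:91741512-91786148 in GRCm38, plus strand) was measured at 9.14, 9.01 and 6.80 FPKM in the CL kidneys of mice 1, 2 and 3 and at 3.28, 1.80 and 3.86 FPKM in their UUO kidneys. Its transcript was therefore still detected in the knockout, at lower values than in any wild type library of the same side, which held 73.8, 52.7 and 78.1 FPKM in CL and 9.98, 16.7 and 21.2 FPKM in UUO. Within the knockout the remaining transcript fell with UUO by 1.25 on the log2(FPKM + 1) scale (SE 0.25, limma adjusted p 0.0043), and no UUO library reached the lowest CL library. The fall in wild type was -2.07, and the difference of the changes, 0.81, did not pass the test (adjusted p 0.505).

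Of 12818 genes with at least 1 FPKM in at least 3 of the 6 libraries, 2576 (20.1%) were higher and 2563 (20.0%) were lower in UUO than in CL kidneys at a limma adjusted p under 0.05, and 6234 were under 0.05 without adjustment. All changes are given on the log2(FPKM + 1) scale as UUO minus CL, which understates the change of genes at low FPKM. The change was at least 2-fold on this scale for 1709 higher and 1599 lower genes, at least 4-fold for 459 and 322, and at least 16-fold for 26 and 8. The calls were made on these same 6 libraries and favor genes with 1 direction in every mouse, so the counts by mouse are a description and support nothing. Of the genes called higher, 2575 of 2576 were higher in each of the 3 mice, and all 2563 genes called lower were lower in each. The exception was Lum, a matrix proteoglycan, with changes of 1.58, -0.05 and 1.53 in mice 1, 2 and 3 (fitted 1.02, SE 0.34, adjusted p 0.0428), and its call was lost without any 1 library other than CL replicate 2. The UUO and CL values did not overlap for 3478 genes (27.1%) with UUO above and for 3605 genes (28.1%) with UUO below. The call held in each of the 6 fits without 1 library for 1832 higher and 1474 lower genes. The balance of directions depended on the scaling of the libraries. CL libraries summed to 834859 to 896697 FPKM and UUO libraries to 529330 to 686425, and with the libraries scaled to equal totals the median change of all genes moved from -0.02 to 0.44 and the calls to 4629 higher and 1160 lower. This scaling moves genes upward in general. A list with equal totals is therefore to be read beside 4629 and 1160 of 12818 genes and a median of 0.44.

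**Figure D1:**
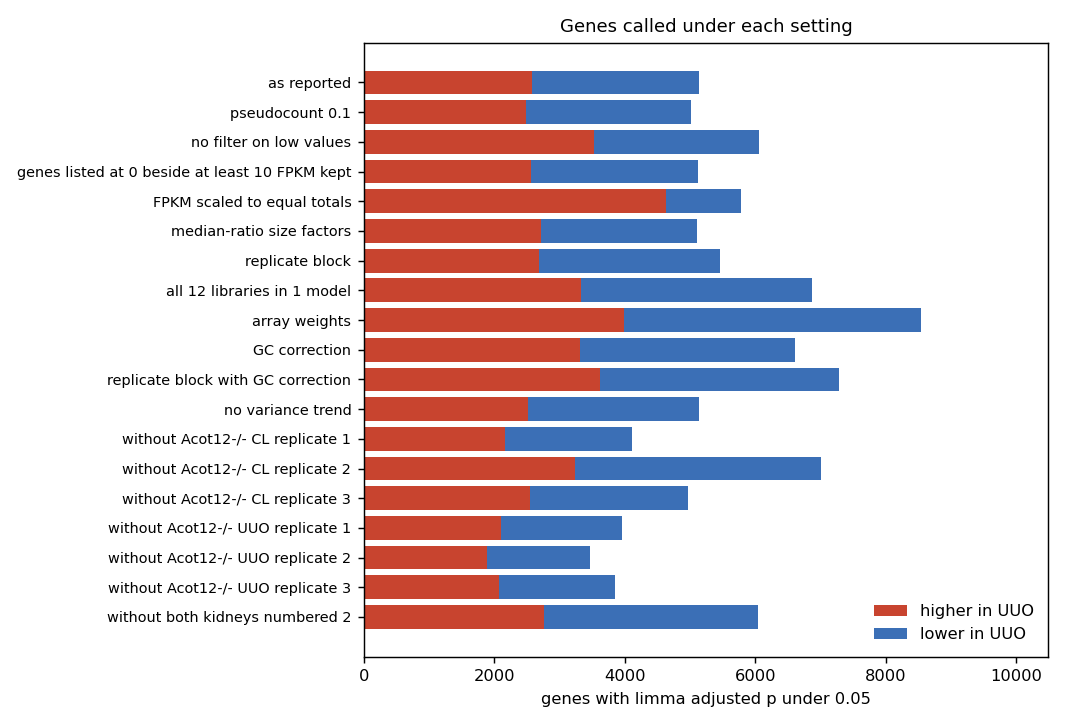
Number of genes called (x axis, genes with a limma adjusted p under 0.05) under each setting (y axis), split into genes higher (red) and lower (blue) in Acot12-/- UUO than in CL. The 2 directions are nearly even as reported (2576 and 2563), equal totals shift them to 4629 and 1160, and leaving out CL replicate 2 raises both, to 3235 and 3780.

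Of the 10 genes with the largest rises, 6 stood in the list of injured tubule genes. That list was drawn up with earlier results of these data known, so the overlap is a description and supports nothing. Havcr1, which encodes the injury marker KIM-1, was at 0.897, 2.55 and 8.43 FPKM in CL and at 564, 686 and 568 FPKM in UUO, a change of 7.24 (SE 0.50, adjusted p 8.05e-05). Krt20, an epithelial keratin that normal cortex hardly uses, was at 0.314, 0.202 and 0.290 FPKM in CL and 43.8, 54.9 and 52.5 FPKM in UUO, a change of 5.33 (SE 0.19, adjusted p 5.17e-06). Havcr1 separated the kidneys completely. Krt20 did so too, but it had under 1 FPKM in every CL library. It thus entered the test only through UUO, and its separation was fixed by the filter. On the log2(FPKM + 1) scale the CL values of Havcr1 spread more among mice than its UUO values or the values of Krt20. Aoc1, a diamine oxidase, rose by 5.72 (SE 0.22, adjusted p 6.84e-06), from 1.07, 1.48 and 1.81 FPKM to 142, 134 and 109 FPKM. Lcn2, the iron-binding protein NGAL, was at 2.58, 5.73 and 29.6 FPKM in CL and 312, 462 and 467 FPKM in UUO, a change of 5.50 (SE 0.67, adjusted p 0.000511). The CL kidney of mouse 3 held the highest CL value of Havcr1 and of Lcn2. The same top 10 held C3 (5.46), the central complement component, Ubd (5.24), a ubiquitin-like protein induced by cytokines, Vcam1 (5.19), an adhesion molecule, Timp1 (5.09), an inhibitor of matrix metalloproteinases, and Hspb1 (5.06), a small heat shock protein. Sprr2f, a cornified envelope protein, was listed at 0 in the 3 CL libraries and at 89.9, 177 and 88.4 FPKM in UUO. It too entered the test only through UUO. It belongs to a family of near-identical genes, so its value is uncertain where reads were split among them. Krt20 and Sprr2f are also genes of urothelium, whose markers were higher in UUO as well (Krt5 by 4.06), and the part of that tissue in their values was not tested.

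The largest falls were those of distal tubule and proximal tubule genes. Pvalb, the calcium-binding parvalbumin of the distal convoluted tubule, was at 56.8, 64.3 and 76.3 FPKM in CL and at 0.198, 0.081 and 0.142 FPKM in UUO, a change of -5.86 (SE 0.19, adjusted p 5.17e-06). With under 1 FPKM in every UUO library, it entered the test only through CL. Calb1, the calbindin that carries calcium through distal cells, fell by 4.57 (SE 0.44, adjusted p 0.0002), from 435, 665 and 359 FPKM to 33.6, 9.41 and 20.8 FPKM. Egf, the growth factor that distal segments shed into urine, fell by 4.40 (SE 0.47, adjusted p 0.000291), from 195, 188 and 95.4 FPKM to 10.2, 2.52 and 8.73 FPKM. For Calb1 and Egf mouse 2 had the lowest UUO value. The other members of the 10 largest falls were Acsm3 (-4.27), a mitochondrial medium-chain acyl-CoA synthetase, Gpx6 (-4.12), a glutathione peroxidase, Ugt3a1 (-4.11), a glycosyltransferase, the predicted gene Gm6300 (-4.06), Ttr (-4.02), the thyroxine carrier, Slc22a22 (-3.98), a prostaglandin transporter, and Slc22a8 (-3.88), the basolateral organic anion transporter OAT3. In bulk cortex, fewer cells of a type and less RNA per cell cannot be told apart.

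Promoter sequences of RefSeq (GRCm38.p6, the 250 bases before the start of transcription, 5′ to 3′ on the gene's strand) are shown for Sprr2f, which came from 0, and for Pvalb and Egf, which fell most among genes with an entry there. Capitals mark motifs found by search. In Sprr2f (chr3:92364937-92365186, plus strand) they are an AP-1 motif at -197 to -191 from the start and a TATA box at -29 to -24. Pvalb (chr15:78206401-78206650, minus strand) and Egf (chr3:129755323-129755572, minus strand, within an exon of the noncoding gene 6330410L21Rik) held none of the letters searched.
Sprr2f: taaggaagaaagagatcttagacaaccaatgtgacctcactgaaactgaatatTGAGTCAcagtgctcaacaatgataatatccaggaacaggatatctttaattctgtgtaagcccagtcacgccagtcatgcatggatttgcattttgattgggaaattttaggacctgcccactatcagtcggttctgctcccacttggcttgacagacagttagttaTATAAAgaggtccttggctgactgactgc
Pvalb: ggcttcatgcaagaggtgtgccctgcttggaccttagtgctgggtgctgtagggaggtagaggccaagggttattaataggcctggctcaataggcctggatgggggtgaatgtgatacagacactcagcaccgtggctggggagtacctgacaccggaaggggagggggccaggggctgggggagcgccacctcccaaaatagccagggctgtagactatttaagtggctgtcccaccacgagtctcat
Egf: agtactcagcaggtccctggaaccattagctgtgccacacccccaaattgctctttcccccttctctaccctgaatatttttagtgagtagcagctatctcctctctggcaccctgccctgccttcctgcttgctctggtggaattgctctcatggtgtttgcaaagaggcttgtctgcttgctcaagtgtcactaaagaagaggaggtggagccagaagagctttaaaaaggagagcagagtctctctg

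Such promoters could be matched to 9775 of the 12818 genes tested, 1897 of them called higher and 1964 called lower. The AP-1 letters TGANTCA, read on both strands, stood in 8.65% of the promoters of genes called higher, 5.04% of those called lower and 5.67% of all. For the NF-kappaB letters GGGANTTTC on both strands the shares were 1.85%, 0.866% and 1.00%, and for the HNF1 letters GTTAATNAT on both strands 0.633%, 1.27% and 0.614%. The TATA letters TATAAA on the plus strand stood in 6.75%, 5.80% and 4.94%, the HNF4 letters CAAAGTCCA on both strands in 0.527%, 0.662% and 0.450%, and the E2F letters TTTGGCGC or TTTCGCGC on both strands in 1.27%, 1.22% and 1.45%. These shares describe letters in a window and were not tested.

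**Figure D2:**
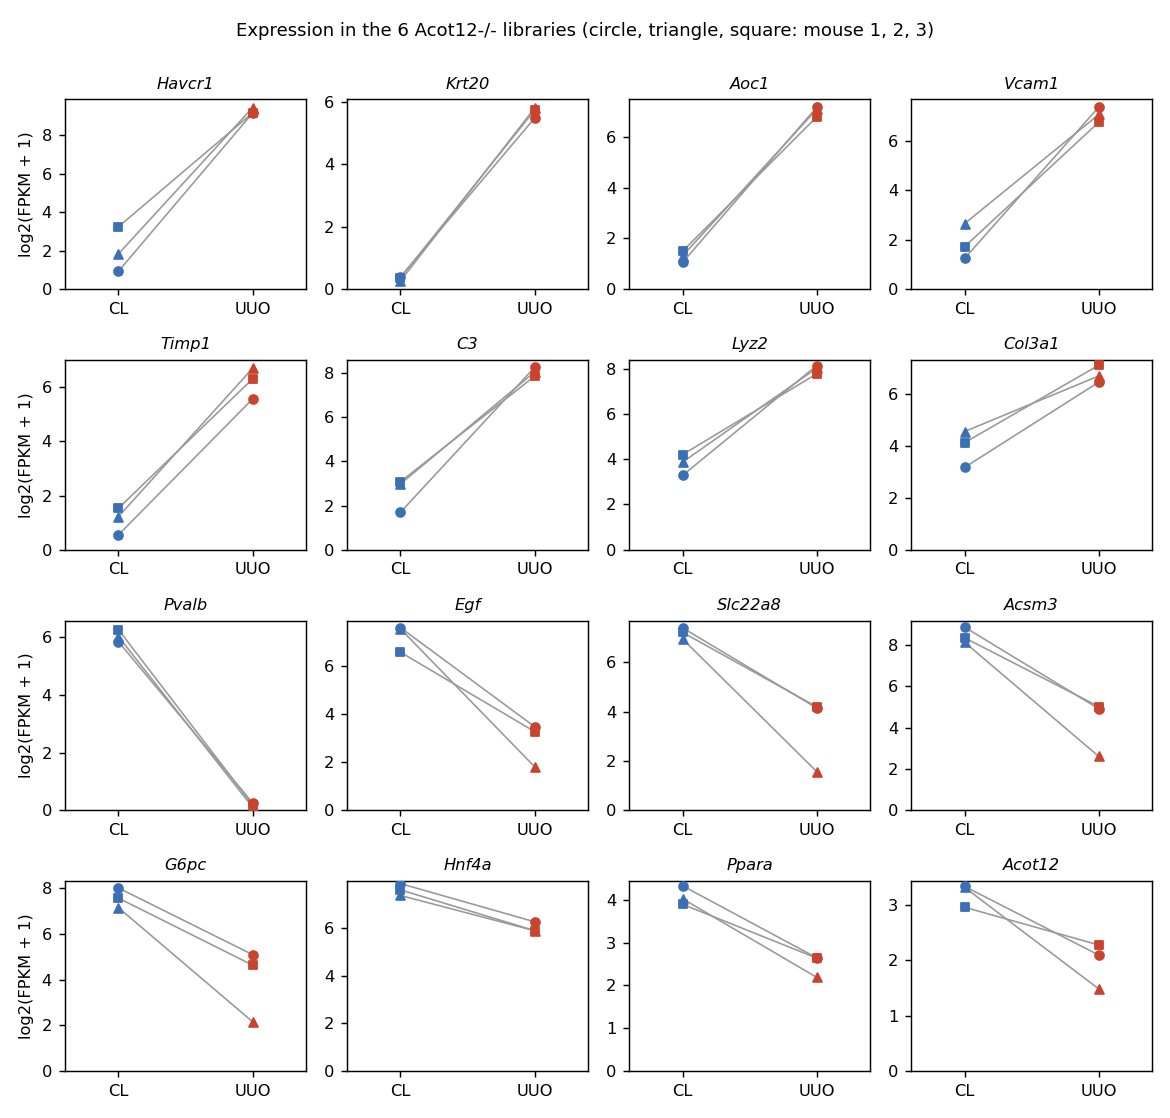
Expression of 16 genes in log2(FPKM + 1) (y axis, from 0 in each panel) in the CL and UUO kidneys (x axis) of Acot12-/- mouse 1 (circle), 2 (triangle) and 3 (square), with a line joining the kidneys of a mouse. Lines rise in all 3 mice for the 8 genes of the upper panels, such as Havcr1 and Krt20, and fall for the 8 genes of the lower panels, with the lowest UUO value in mouse 2 for Egf, Slc22a8, Acsm3 and G6pc.

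Proximal tubule transporters and receptors were lower in UUO almost without exception. Of 43 tested, 40 were called lower and none higher, with a median change of -2.25 beside -0.02 over all genes, and the medians in mice 1, 2 and 3 were -1.90, -2.93 and -1.92. Slc22a8 was at 167, 122 and 147 FPKM in CL and 16.7, 1.97 and 17.3 FPKM in UUO (SE 0.63, adjusted p 0.00171), so mouse 2 fell further than the others. Lrp2, the endocytic receptor megalin, fell by 2.51 (SE 0.33, adjusted p 0.00069), from 141, 162 and 106 FPKM to 33.1, 14.1 and 24.8 FPKM. Slc5a2, the glucose transporter SGLT2, fell by 2.38 (SE 0.51, adjusted p 0.00634), from 182, 58.7 and 147 FPKM to 33.6, 10.7 and 27.6 FPKM. In both genes the 3 UUO values lay under the 3 CL values. Slc34a1, the sodium phosphate transporter, fell by 2.53 (adjusted p 0.0145), and this call was lost without CL replicate 1. Of 20 brush border and luminal enzymes, 15 were lower and none higher (median -1.41), and 9 were lower without CL replicate 1 or without UUO replicate 2. Mep1b, a subunit of the luminal protease meprin, fell most among them, by 3.53 (SE 0.62, adjusted p 0.00248).

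The other nephron segments differed in how many of their genes were called lower. In the thick ascending limb, which reabsorbs salt without water, 16 of 21 genes (76.2%, beside 20.0% of all genes) were lower and none higher (median -1.47). Slc12a1, its sodium, potassium and chloride cotransporter NKCC2, fell by 1.95 (SE 0.43, adjusted p 0.00752), from 129, 268 and 70.0 FPKM to 35.2, 29.2 and 38.2 FPKM, and Kcnj1, its apical potassium channel, fell by 1.87 (SE 0.31, adjusted p 0.00178). Umod, uromodulin, fell by 1.20 (adjusted p 0.0169), and its call was lost with equal totals and without UUO replicate 1 or 2. In the distal convoluted and connecting tubule, 15 of 21 were lower and none higher (median -1.18), and 9 were lower with equal totals. Beside Pvalb and Calb1, S100g, another vitamin D dependent calcium-binding protein, was at 6038, 10739 and 11804 FPKM in CL and 1083, 564 and 750 FPKM in UUO (change -3.57, SE 0.39, adjusted p 0.000329), and Kl, the FGF23 coreceptor Klotho, fell by 3.13 (SE 0.36, adjusted p 0.000406). Among principal cell genes 5 of 15 (33.3%, beside 20.0% of all genes) were lower and none higher (median -0.54). The lower count was 3 without CL replicate 1 or 3, 2 without UUO replicate 2 or 3, and 8 with GC correction. It was 3 with equal totals, where the list median was -0.00 (0.44 over all genes). Aqp2, the vasopressin-regulated water channel, was at 169, 38.9 and 164 FPKM in CL and 152, 23.3 and 96.0 FPKM in UUO and was not called, while Aqp4, a basolateral water channel, fell by 1.79 (adjusted p 0.0284, lost without any 1 UUO replicate). Its change was -1.06 without CL replicate 2, which held 29.9 FPKM beside 4.92 and 6.68 FPKM. Of 20 intercalated cell genes 11 were lower and 2 higher (median -0.91), 7 were lower with equal totals or without UUO replicate 2, and 4 were higher with equal totals. Car12, a carbonic anhydrase, fell most (-2.27, SE 0.31, adjusted p 0.000755) and Slc4a11, of the bicarbonate transporter family, rose by 1.89 (SE 0.19, adjusted p 0.000225).

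Podocyte genes did not share a direction. Of 18, 6 (33.3%, beside 20.1% of all genes) were higher and 2 (11.1%, beside 20.0%) lower, with a median of 0.08. Nphs1, nephrin of the slit diaphragm, was at 4.89, 3.56 and 2.99 FPKM in CL and 3.08, 3.57 and 2.53 FPKM in UUO and was not called. Tcf21, a transcription factor of podocytes and of interstitial stromal cells, rose by 2.43 (SE 0.20, adjusted p 0.000124), from 9.46, 10 and 9.12 FPKM to 48.1, 62.8 and 57.5 FPKM.

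**Figure D3:**
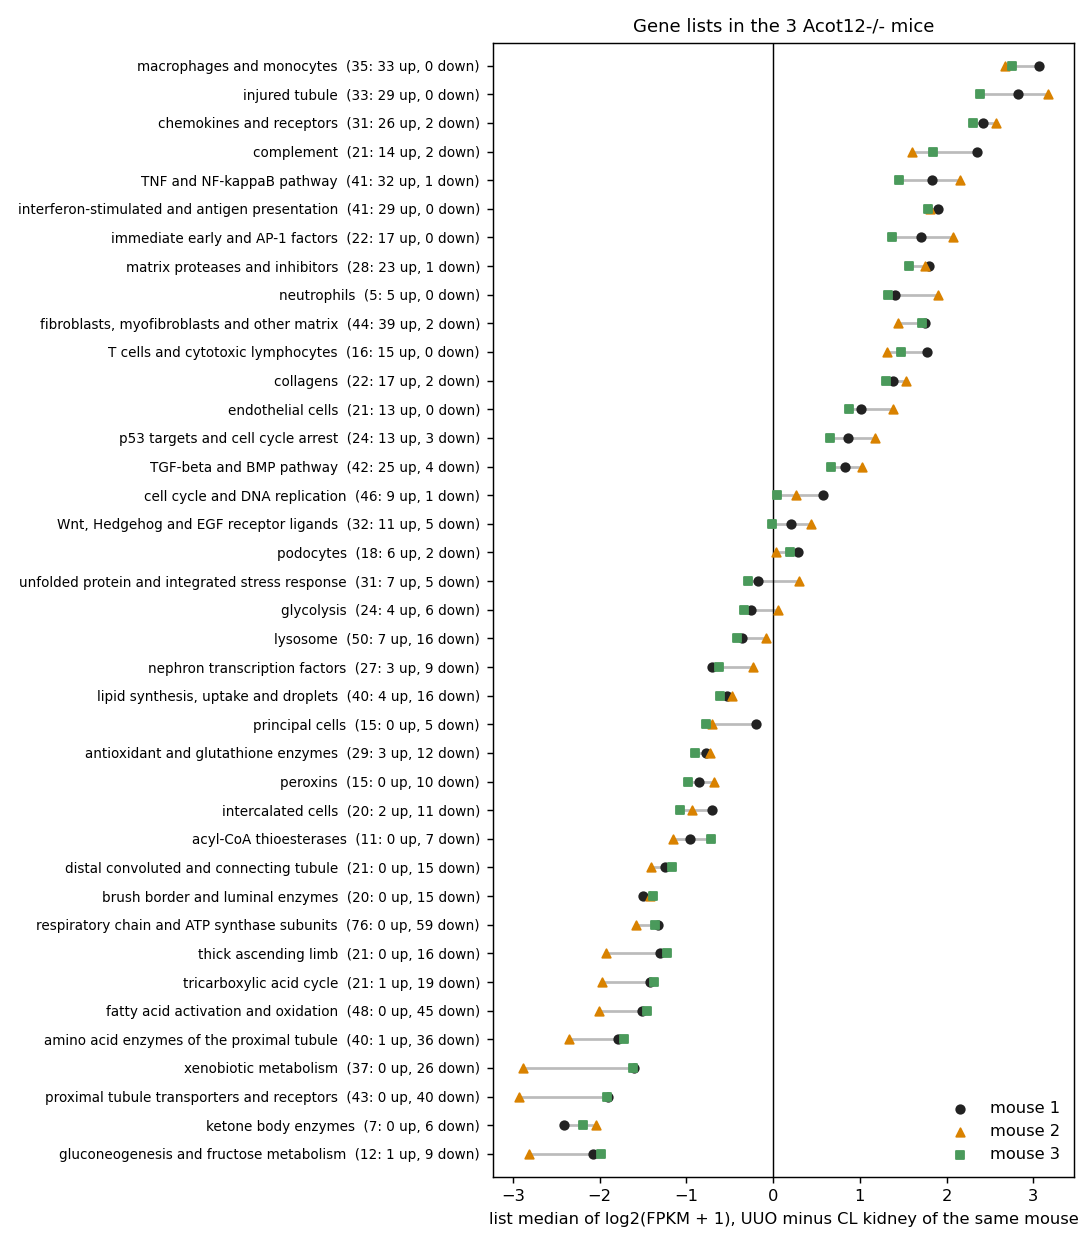
Median change of each gene list in log2(FPKM + 1), UUO minus CL kidney of the same mouse (x axis), for Acot12-/- mouse 1 (circle), 2 (triangle) and 3 (square), with the number of genes tested and called up and down beside each list name (y axis). Macrophage (2.84 over the 3 mice) and injured tubule genes (2.73) stand at the top and proximal tubule transporters (-2.25), ketone body (-2.28) and gluconeogenic enzymes (-2.40) at the bottom, and mouse 2 lies lowest for the proximal tubule transporters (-2.93 beside -1.90 and -1.92).

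Fatty acid activation and oxidation was among the programs with the highest share of genes called: 45 of 48 were lower in UUO and none higher, with a median change of -1.71 and medians of -1.51, -2.01 and -1.45 in mice 1, 2 and 3. Acadm, the medium-chain acyl-CoA dehydrogenase of mitochondria, was at 1148, 740 and 914 FPKM in CL and 177, 68.8 and 202 FPKM in UUO, a change of -2.76 (SE 0.42, adjusted p 0.00125). Ehhadh, the bifunctional enzyme of peroxisomal oxidation, fell by 3.28 (SE 0.49, adjusted p 0.00112), from 406, 319 and 357 FPKM to 61.3, 14.4 and 52.1 FPKM. Cpt1a, which commits long-chain fatty acids to mitochondria, fell less, by 1.19 (SE 0.21, adjusted p 0.00254), from 125, 109 and 108 FPKM to 54.3, 44.0 and 49.9 FPKM. Each of these genes had its lowest UUO value in mouse 2. Acsm3 fell most, from 464, 279 and 324 FPKM to 29.1, 5.09 and 31.4 FPKM (SE 0.59, adjusted p 0.000867). It belongs to a family of similar genes, so reads could be shared with its relatives.

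The thioesterases, which work against activation, fell with them. Of 11 Acot genes tested, Acot12 included, 7 were lower and none higher (median -1.02). Acot4, a peroxisomal enzyme, fell by 2.01 (SE 0.26, adjusted p 0.000642), from 35.7, 41.7 and 34.5 FPKM to 10.9, 5.66 and 9.65 FPKM, and Acot11 (-1.98), Acot3 (-1.87) and Acot13 (-1.64) followed. Acot2, Acot7, Acot8 and Acot9 were not called. Of 15 peroxins, the proteins that build peroxisomes and import their enzymes, 10 (66.7%, beside 20.0% of all genes) were lower and none higher (median -0.87). The lower count was 5 without UUO replicate 2, 6 without UUO replicate 3 and 2 with equal totals. Pex7, the import receptor for PTS2 proteins, fell most, by 1.56 (SE 0.21, adjusted p 0.00069), from 49.8, 57.8 and 58.2 FPKM to 19.5, 15.5 and 19.3 FPKM, and Pex2, part of the import machinery, fell by 1.14 (SE 0.24, adjusted p 0.00531), a call that equal totals ended.

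Genes of lipid synthesis, uptake and droplets were mixed. Of 40, 16 (40%, beside 20.0% of all genes) were lower and 4 (10%, beside 20.1%) higher. The median of -0.47 became 0.02 with equal totals (0.44 over all genes), where 8 were higher. Without CL replicate 1 or any 1 UUO replicate, 2 were higher. Cd36, the fatty acid translocase, fell most, by 2.86 (SE 0.33, adjusted p 0.000418), from 214, 220 and 161 FPKM to 34.4, 15.4 and 33.5 FPKM. Plin2, the coat protein of lipid droplets, was at 78.9, 53.5 and 82.6 FPKM in CL and 110, 113 and 134 FPKM in UUO, a rise of 0.74 (SE 0.25, adjusted p 0.0413). The UUO and CL values of Plin2 did not overlap, but its call was lost without CL replicate 1 or any 1 UUO replicate. Fabp4, the fatty acid binding protein of adipocytes and capillary endothelium, rose most and is described with the endothelial genes.

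Genes of mitochondrial metabolism and of glucose production were mostly lower. Of 76 respiratory chain and ATP synthase subunits 59 were lower and none higher (median -1.42), and 75 were lower without CL replicate 2. Cycs, the electron carrier cytochrome c, fell most, by 2.14 (SE 0.34, adjusted p 0.00156), from 283, 576 and 348 FPKM to 102, 61.6 and 103 FPKM, and Atp5b, a catalytic subunit of ATP synthase, fell by 1.90 (SE 0.32, adjusted p 0.00189). In the tricarboxylic acid cycle 19 of 21 genes were lower (median -1.64), led by Suclg1, a subunit of succinyl-CoA ligase (-2.40, SE 0.31, adjusted p 0.000625). The 1 gene called higher was Pdk4 (0.89, adjusted p 0.0342), a kinase that shuts pyruvate dehydrogenase, and its call was lost without CL replicate 1 or any 1 UUO replicate. Ketone body enzymes were lower in 6 of 7 (median -2.28), led by Oxct1, which the tissue needs to use ketone bodies (-2.90, SE 0.37, adjusted p 0.000629). Gluconeogenesis and fructose metabolism were lower in 9 of 12 and higher in 1 (median -2.40). G6pc, the glucose-6-phosphatase that releases glucose, was at 259, 142 and 190 FPKM in CL and 33.3, 3.46 and 23.9 FPKM in UUO, a change of -3.62 (SE 0.68, adjusted p 0.0033). The 1 higher gene was Pck2, the mitochondrial form of PEP carboxykinase (1.11, SE 0.22, adjusted p 0.00415), while the cytosolic form Pck1 fell by 2.64 (SE 0.61, adjusted p 0.00931). In glycolysis 4 of 24 genes (16.7%, beside 20.1% of all genes) were higher and 6 (25.0%, beside 20.0%) lower, with a median of -0.22. With equal totals the median was 0.28 (0.44 over all genes), and 9 were higher and 2 lower. Without CL replicate 2 the lower count was 10, and without UUO replicate 2 it was 3. All 4 higher genes had under 1 FPKM in every CL library, so they entered the test only through UUO and their rises support nothing. None of the 20 genes with at least 1 FPKM in every CL library was higher. Among the 4, Hk2, an inducible hexokinase, rose by 2.28 (SE 0.28, adjusted p 0.000497), from 0.038, 0.279 and 0.174 FPKM to 3.34, 7.98 and 3.57 FPKM. Pgk1, phosphoglycerate kinase, fell by 1.35 (SE 0.24, adjusted p 0.00277).

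Of 40 amino acid enzymes of the proximal tubule, 36 were lower and 1 higher (median -1.97). Acmsd, which steers tryptophan breakdown away from NAD synthesis, fell most (-3.46, SE 0.49, adjusted p 0.000959), and Gatm, the first enzyme of creatine synthesis, fell by 3.42 (SE 0.49, adjusted p 0.000966), from 657, 1003 and 312 FPKM to 84.3, 31.4 and 60.2 FPKM. The gene called higher was Arg2, the mitochondrial arginase (1.43, SE 0.26, adjusted p 0.00319). Of 37 xenobiotic enzymes 26 were lower and none higher (median -2.10), with Ugt3a1 going from 287, 359 and 311 FPKM to 29.4, 4.40 and 37.1 FPKM. Many of these belong to multigene families in which reads can be shared.

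Of 27 transcription factors that maintain nephron identity 9 (33.3%, beside 20.0% of all genes) were lower and 3 (11.1%, beside 20.1%) higher (median -0.46), and 15 were lower without CL replicate 2 and 5 without UUO replicate 2, without UUO replicate 3 or with equal totals, where 6 were higher. Hnf4a, a nuclear receptor of proximal tubule identity, was at 232, 164 and 193 FPKM in CL and 75.7, 58.2 and 58.3 FPKM in UUO, a change of -1.60 (SE 0.24, adjusted p 0.00121). Ppara, the nuclear receptor that switches on fatty acid oxidation genes, fell by 1.59 (SE 0.22, adjusted p 0.000867), from 19.1, 15.3 and 13.9 FPKM to 5.26, 3.56 and 5.23 FPKM. Both fell in each mouse without overlap. Klf15, a Krüppel-like factor, fell most (-2.09, SE 0.31, adjusted p 0.00114) and Cebpd, an acute-phase factor, rose most (2.38, SE 0.49, adjusted p 0.00503).

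Of 33 genes of the injured tubule, 29 were called higher and none lower. Their median change was 2.73, with 2.82, 3.17 and 2.39 in mice 1, 2 and 3. Of the 33, 3 had under 1 FPKM in every CL library and entered the test only through UUO. Among the 27 with at least 1 FPKM in every CL library 23 were higher. Beside Havcr1, Krt20, Aoc1, Lcn2 and Vcam1, Sox9, a factor of tubule regeneration, rose by 3.09 (SE 0.22, adjusted p 8.44e-05), from 0.460, 0.661 and 1.4 FPKM to 13.7, 15.2 and 14.1 FPKM, and Cd44, a receptor for hyaluronan and osteopontin, rose by 4.55 (SE 0.27, adjusted p 6.83e-05). Spp1, osteopontin itself, was among the 5 genes with the highest mean FPKM in UUO, with 14826, 15934 and 15064 FPKM there and 1541, 4898 and 3849 FPKM in CL (change 2.31, SE 0.46, adjusted p 0.00448). Immediate early and AP-1 factors rose in 17 of 22 with none lower (median 1.70). Of these, 2 entered the test only through UUO, and 11 of the 16 with at least 1 FPKM in every CL library were higher. Junb went from 5.44, 1.79 and 18.2 FPKM to 59.9, 107 and 68.8 FPKM, a change of 3.46 (SE 0.60, adjusted p 0.0024), and Egr1 rose by 3.13.

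Most of the matrix genes tested were higher. A gene with under 1 FPKM in every CL library entered the test only through its UUO libraries and had to be higher to do so, so its rise is a description and supports nothing. Such genes made up 3 of the 22 collagens, 8 of the 44 fibroblast and matrix genes and 11 of the 28 matrix proteases and inhibitors tested. Of 22 collagens tested 17 were higher and 2 lower (median 1.46). Col3a1, a fibrillar collagen of scar tissue, was at 8.07, 22.7 and 16.6 FPKM in CL and 88.0, 104 and 139 FPKM in UUO, a change of 2.81 (SE 0.36, adjusted p 0.000651), and Col1a1 rose by 2.78 (SE 0.24, adjusted p 0.000144), from 6.62, 7.85 and 11.5 FPKM to 57.7, 65.0 and 69.1 FPKM. Col4a3, a chain of the glomerular and tubular basement membrane, fell by 1.51 (SE 0.27, adjusted p 0.0026). Fibroblast, myofibroblast and other matrix genes were higher in 39 of 44 and lower in 2 (median 1.60), with 1 lower when the mouse was a block. Mgp, an inhibitor of calcification, rose most, from 62.5, 133 and 174 FPKM to 1263, 1585 and 1746 FPKM (3.73, SE 0.39, adjusted p 0.000271), Fn1, fibronectin, rose by 2.98 (SE 0.21, adjusted p 8.49e-05) and Pdgfrb, a receptor of pericytes and fibroblasts, by 2.29 (SE 0.22, adjusted p 0.0002). Acta2, the smooth muscle actin of myofibroblasts, rose less, by 1.35 (SE 0.22, adjusted p 0.00178), from 11.2, 11.2 and 16.7 FPKM to 35.4, 32.3 and 35.0 FPKM. Igfbp5, a binding protein of insulin-like growth factors, fell most in this list (-1.34, SE 0.28, adjusted p 0.00557).

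Matrix proteases and inhibitors were higher in 23 of 28 and lower in 1 (median 1.65). Timp1 was at 0.462, 1.33 and 1.89 FPKM in CL and 46.4, 103 and 78.4 FPKM in UUO (SE 0.35, adjusted p 7.89e-05), whereas Timp3, another inhibitor of the family, fell by 1.77 (SE 0.29, adjusted p 0.00168), from 591, 570 and 399 FPKM to 180, 114 and 162 FPKM. The inhibitors thus moved apart. In the TGF-beta and BMP pathway 25 of 42 (59.5%, beside 20.1% of all genes) were higher and 4 (9.52%, beside 20.0%) lower (median 0.78). The lower count was 1 with equal totals and 2 without UUO replicate 2. Of the 42, 6 had under 1 FPKM in every CL library and entered the test only through UUO. Among the 33 with at least 1 FPKM in every CL library 18 were higher. Tgfb1, the main fibrogenic ligand, rose most, by 2.94 (SE 0.31, adjusted p 0.000305), from 4.87, 1.48 and 3.73 FPKM to 28.8, 33.8 and 28.8 FPKM. Chrdl1, a secreted BMP antagonist, fell most (-1.37, SE 0.15, adjusted p 0.000329). Of 32 ligands and receptors of Wnt, Hedgehog and EGF signaling and related growth factors, 11 (34.4%, beside 20.1% of all genes) were higher and 5 (15.6%, beside 20.0%) lower (median 0.33). The lower count was 3 when the mouse was a block, 2 without CL replicate 1, 8 without CL replicate 3 and 1 with equal totals. Of the 32, 5 had under 1 FPKM in every CL library and entered the test only through UUO. Among the 24 with at least 1 FPKM in every CL library 5 were higher, which is close to the 20.1% of all genes. Pdgfb, a ligand of Pdgfrb, rose by 2.17 (SE 0.34, adjusted p 0.00139) and Fgf1 fell by 1.99 (SE 0.35, adjusted p 0.00233).

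Leukocyte genes were higher in UUO, but many of them passed the filter only through the UUO libraries, namely 5 of the 35 macrophage and monocyte genes tested, 11 of the 16 T cell and cytotoxic lymphocyte genes, 3 of the 5 neutrophil genes and 11 of the 31 chemokines and receptors. Their counts describe the genes that passed and support nothing. Of 35 macrophage and monocyte genes 33 were higher and none lower, with a median of 2.84. Lyz2, lysozyme of myeloid cells, was at 8.73, 13.6 and 17.4 FPKM in CL and 280, 259 and 217 FPKM in UUO, a change of 4.19 (SE 0.28, adjusted p 7.51e-05). C1qa, a complement component that tissue macrophages make, rose by 3.66 (SE 0.41, adjusted p 0.000356), from 9.89, 13.3 and 28.1 FPKM to 136, 241 and 274 FPKM. Cd68, a lysosomal macrophage marker, rose by 3.03 (SE 0.27, adjusted p 0.000161), while Csf1r, the receptor of their growth factor, changed by 0.61 and was not called (adjusted p 0.0758). Of 29 T cell and cytotoxic lymphocyte genes in the files 16 passed the filter. Ccl5 went from 5.12, 2.56 and 4.40 FPKM to 95.1, 43.3 and 50.7 FPKM (3.62, SE 0.34, adjusted p 0.000183). Cd3e, a chain of the T cell receptor complex, rose by 1.05. Of 13 neutrophil genes 5 passed the filter, and S100a9 rose most among them (2.75, adjusted p 0.0122). Of 13 B cell and plasma cell genes 3 passed the filter, among them Jchain, which joins secreted antibodies, with 1.21, 6.58 and 3.85 FPKM in CL and 19.0, 41.2 and 39.8 FPKM in UUO (2.91, SE 0.46, adjusted p 0.00157). The defining B cell gene Ms4a1 did not pass the filter on low values.

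Genes of chemokines, complement and inflammatory signaling were also mostly higher. Chemokines and their receptors were higher in 26 of 31 and lower in 2 (median 2.36). Ccl2, which attracts monocytes, rose by 4.35 (SE 0.25, adjusted p 5.05e-05), from 0.930, 1.34 and 2.05 FPKM to 54.9, 53.5 and 37.8 FPKM, and Ccl8 rose most, by 4.74 (SE 0.35, adjusted p 0.000104). Ccl28, an epithelial chemokine, fell (-1.39, SE 0.19, adjusted p 0.000733). Complement genes were higher in 14 of 21 and lower in 2 (median 1.97), and C3 went from 2.24, 6.88 and 7.44 FPKM to 304, 262 and 230 FPKM (SE 0.37, adjusted p 7.51e-05). Of these 21 genes, 2 entered the test only through UUO, and 9 of the 15 with at least 1 FPKM in every CL library were higher. In the TNF and NF-kappaB pathway 32 of 41 were higher and 1 lower (median 1.91). Of the 41, 8 had under 1 FPKM in every CL library and entered the test only through UUO. Among the 27 with at least 1 FPKM in every CL library 18 were higher. Vcam1 was at 1.37, 5.28 and 2.29 FPKM in CL and 164, 133 and 107 FPKM in UUO (SE 0.36, adjusted p 7.89e-05), and the gene called lower was Tnfaip8 (-1.84, SE 0.39, adjusted p 0.00572). Tnf itself stayed under the filter, at 0, 0.248 and 0.090 FPKM in CL and 1.52, 1.14 and 0.709 FPKM in UUO.

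Interferon-stimulated and antigen presentation genes were higher in 29 of 41 with none lower (median 1.76). This count moved most with single libraries, to 39 without CL replicate 2 and 19 without UUO replicate 2, and it was 38 when the mouse was a block. Of the 41, 3 had under 1 FPKM in every CL library and entered the test only through UUO. Among the 33 with at least 1 FPKM in every CL library 23 were higher. The mean log2(FPKM + 1) of the list was 2.69, 3.94 and 3.67 in the CL kidneys of mice 1, 2 and 3 and 4.67, 5.72 and 5.43 in their UUO kidneys. Mice 2 and 3 thus held higher levels than mouse 1 in both kidneys, and the median change within mice was nearly the same, 1.90, 1.81 and 1.79. Isg15, a ubiquitin-like protein induced by interferon, was at 7.00, 29.4 and 38.6 FPKM in CL and 38.5, 294 and 219 FPKM in UUO. The CL value of mouse 3 exceeded the UUO value of mouse 1, yet the changes within mice were 2.30, 3.28 and 2.47 (fitted 2.69, SE 0.81, adjusted p 0.0282, lost without CL replicate 1, UUO replicate 2 or UUO replicate 3). H2-Eb1, a class II chain that presents antigen, separated the kidneys without overlap, with 21.4, 26.1 and 39.2 FPKM in CL and 261, 256 and 327 FPKM in UUO (3.27, SE 0.27, adjusted p 0.000131).

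Of 46 cell cycle and DNA replication genes 9 (19.6%, beside 20.1% of all genes) were higher and 1 (2.17%, beside 20.0%) was lower (median 0.39), and the higher count was 18 without CL replicate 2, 23 with GC correction and 26 with equal totals, but 4 without CL replicate 1 or UUO replicate 1, 5 without CL replicate 3 and 7 when the mouse was a block. Mki67, a marker of cycling cells, was at 4.71, 6.47 and 2.68 FPKM in CL and 7.87, 7.28 and 5.58 FPKM in UUO and was not called (0.54, adjusted p 0.156). Ccnd2 rose (1.26, SE 0.27, adjusted p 0.00666) and Ccnd1, the other cyclin that opens the cycle, fell by 1.28 (SE 0.21, adjusted p 0.00168), from 153, 134 and 153 FPKM to 60.2, 56.3 and 62.0 FPKM. p53 targets and genes of cell cycle arrest were higher in 13 of 24 (54.2%, beside 20.1% of all genes) and lower in 3 (12.5%, beside 20.0%). Their median was 0.90, and 1 was lower with equal totals. Cdkn1a, the cell cycle inhibitor p21, rose by 2.43 (SE 0.44, adjusted p 0.00295), from 2.70, 2.53 and 9.87 FPKM to 19.2, 37.9 and 27.5 FPKM, Gadd45b rose most (2.45, SE 0.23, adjusted p 0.000193) and Ccng1 fell (-1.65, SE 0.28, adjusted p 0.00228).

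The unfolded protein and integrated stress response list had 7 of 31 genes higher (22.6%, beside 20.1% of all genes) and 5 lower (16.1%, beside 20.0%). Its median of -0.14 became 0.38 with equal totals (0.44 over all genes), where 3 were lower. Without CL replicate 2, 9 were lower, and without UUO replicate 2, 4 were higher. Atf3, a stress-induced factor, rose by 2.71 (SE 0.25, adjusted p 0.000174), and Shmt2, a mitochondrial enzyme of one-carbon metabolism, fell by 1.70 (SE 0.40, adjusted p 0.00929). Antioxidant and glutathione enzymes were lower in 12 of 29 (41.4%, beside 20.0% of all genes) and higher in 3 (10.3%, beside 20.1%), with a median of -0.77. The higher count was 5 without CL replicate 2 and 7 with equal totals. Cat, the peroxisomal catalase, fell by 2.15 (SE 0.34, adjusted p 0.00153), from 603, 557 and 491 FPKM to 172, 73.5 and 147 FPKM. Lysosomal genes were lower in 16 of 50 (32%, beside 20.0% of all genes) and higher in 7 (14%, beside 20.1%). Their median of -0.24 became 0.29 with equal totals (0.44 over all genes), where 5 were lower and 16 higher. Without CL replicate 2, 24 were lower, without CL replicate 1, 10, and without UUO replicate 2, 7, and without any 1 UUO replicate 4 were higher. Ctss, a cathepsin of antigen-presenting cells, rose by 3.75 (SE 0.43, adjusted p 0.000408), from 5.57, 22.3 and 11.7 FPKM to 124, 183 and 202 FPKM, whereas Arsb, a sulfatase, fell by 2.15 (SE 0.25, adjusted p 0.000427).

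Markers of tissue outside the cortex were measured beside these changes. Of 7 urothelial genes 6 passed the filter, none of them with 1 FPKM in every CL library, and the list summed to 1.15, 13.5 and 6.47 FPKM in CL and 86.3, 109 and 67.1 FPKM in UUO. Krt5, a basal keratin, went from 0.034, 1.41 and 0.722 FPKM to 23.0, 40.1 and 19.2 FPKM, and Upk2, a uroplakin of the urinary surface, from 0.104, 1.11 and 1.45 FPKM to 15.4, 14.9 and 11.2 FPKM, without overlap in either gene. The part of this tissue in the other changes was not tested. Of 5 renal medulla genes 1 (20%, beside 20.1% of all genes) was higher and none lower, with a median of -0.18. This median became 0.36 with equal totals (0.44 over all genes). The medulla list summed to 139 to 307 FPKM in CL and 112 to 255 FPKM in UUO. None of 3 red cell genes was called (1 higher when the mouse was a block), and their sum was lowest in CL replicate 2, at 4.01 FPKM beside 61.4 and 79.1 FPKM in the other CL kidneys and 82.0 to 138 FPKM in UUO. Adrenal and adipocyte markers were near 0, summing to at most 1.00 and 0.9 FPKM in any library. Of 3 muscle genes tested 2 were higher, led by Actg2 (2.38).

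Mice did not change by the same amount. The median absolute change over genes was 0.52 in mouse 1, 0.77 in mouse 2 and 0.54 in mouse 3. The pair of mouse 2 includes CL replicate 2, the library that stood apart with GC content, whose part in this value was not tested. Genes called with the widest range among mice were Slc7a13, an aspartate and glutamate transporter of the proximal tubule (-3.00, -6.12 and -2.26 in mice 1, 2 and 3), Slc22a22 (-2.76, -6.19 and -2.98), Cyp4a14, a fatty acid hydroxylase (-1.31, -5.08 and -1.43), Cxcl3, a neutrophil chemokine (1.76, 4.46 and 1.02), and Saa1, an acute-phase protein (1.51, 0.29 and 4.01). In 4 of these 5 mouse 2 changed most. Slc7a13 was at 65.3, 8.61 and 90.9 FPKM in UUO beside 531, 668 and 438 FPKM in CL, so it was the UUO kidney of mouse 2 that stood low. The call for Cyp4a14 was lost without CL replicate 2, and those for Cxcl3 and Saa1 without any 1 CL replicate.

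Values of the most abundant genes also varied within groups. Kap, the kidney androgen-regulated protein, had the highest mean of both groups but was listed at 0 in CL replicate 3 beside 101309 and 129163 FPKM, so it was not tested, and UUO held 26267, 5148 and 34476 FPKM. Gpx3, the plasma glutathione peroxidase that the kidney secretes, was at 25771, 12019 and 30524 FPKM in CL and 8080, 4401 and 12270 FPKM in UUO with an adjusted p of 0.0504 that became 0.000838 when the mouse was a block. Fth1 and Ftl1, the ferritin chains, were not called either. Fth1 had an adjusted p of 0.00311 when the mouse was a block and 0.0496 with GC correction, and Ftl1, whose change was -0.79, was called without CL replicate 2 (-1.44, adjusted p 0.0367) and with GC correction (adjusted p 0.0434). Tpt1, a translationally controlled protein, was not called, and its change of -0.25 became 0.30 with equal totals. The snoRNA Snord49a was listed at 0 in every CL kidney and in the UUO kidney of mouse 1 but at 7213 and 12464 FPKM in the others, and was not tested.

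The same comparison in wild type mice asks where the knockout responds differently. In it 8578 of 13243 genes were called. Of the 2576 genes higher in Acot12-/- UUO, 2492 had the same sign in wild type and 2230 were called higher there too, and of the 2563 lower genes 2547 had the same sign and 2397 were called lower there too. The median absolute change was 0.54 in the knockout and 0.47 in wild type. Havcr1 changed by 7.24 in the knockout and 7.33 in wild type. The list median of fatty acid oxidation was -1.71 in the knockout and -1.59 in wild type, with a median difference of -0.16 over its genes. Proximal tubule transporters lay further apart, at -2.25 and -1.76, with a median difference of -0.37. The limma test of the difference between the genotypes' changes called 14 of 13243 genes (0.106%), and in all 14 UUO minus CL was higher in Acot12-/- than in wild type (1389 at an unadjusted p under 0.05). With the mouse as a block 83 were called, 78 with UUO minus CL higher in Acot12-/- and 5 with it lower, and the 14 were among the 83. The count changed with every library left out. It was 0 without any 1 of the 6 wild type libraries and without CL replicate 1, UUO replicate 2 or UUO replicate 3 of the knockout (1025 to 1274 at an unadjusted p under 0.05). It was 8 without UUO replicate 1, 153 without CL replicate 3 and 916 without CL replicate 2. The single direction was not kept in that last fit, where UUO minus CL was higher in Acot12-/- for 520 genes and lower for 396. With GC correction 20 genes were called, 18 higher and 2 lower.

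**Figure D4:**
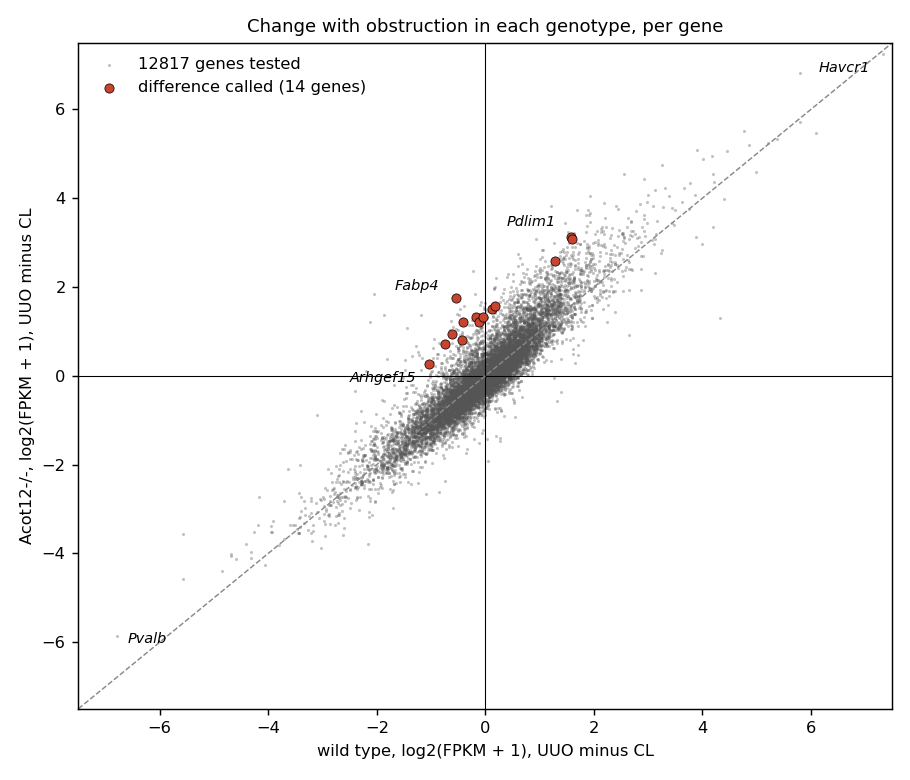
Change with UUO in log2(FPKM + 1), UUO minus CL, of 12817 genes in wild type (x axis) and Acot12-/- mice (y axis), with the dashed line marking equal change and red points the 14 genes called by the test of the difference. Most genes lie along the line, Havcr1 at the upper right (7.33 and 7.24), and the red points lie above it, with Fabp4 (-0.54 and 1.76) farthest off among them.

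For each of the 14 genes the 3 Acot12-/- CL libraries lay below the 3 wild type CL libraries, as they did for 1188 of 12818 genes (9.27%). The test that picked the 14 uses these same values and favors low Acot12-/- CL values, so this is a description and supports nothing. Several of the 14 are known from endothelial cells. Tie1, an endothelial receptor kinase, was at 3.13, 3.33 and 3.69 FPKM in the knockout's CL kidneys and 9.58, 10.5 and 10.1 FPKM in its UUO kidneys, against 7.96, 7.08 and 9.81 FPKM in wild type CL and 7.82, 7.11 and 8.98 FPKM in wild type UUO. Its change was 1.33 (SE 0.17) in the knockout and -0.04 in wild type, a difference of 1.38 (SE 0.20, adjusted p 0.0287). Fabp4 was at 55.9, 102 and 66.2 FPKM in the knockout's CL kidneys, 199, 243 and 312 FPKM in its UUO kidneys, 279, 258 and 307 FPKM in wild type CL and 210, 207 and 167 FPKM in wild type UUO. It rose by 1.76 (SE 0.30, adjusted p 0.00208) in the knockout and fell by 0.54 in wild type, a difference of 2.30 (SE 0.33, adjusted p 0.0287). For both genes the knockout CL kidneys were the low group. Arhgef15, a guanine nucleotide exchange factor of endothelial cells, changed by 0.26 in the knockout, where it was not called, and by -1.04 in wild type (difference 1.30, adjusted p 0.0458). Pdlim1, a cytoskeletal adaptor, was at 0.681, 0.745 and 0.968 FPKM in the knockout's CL kidneys and 11.9, 16.5 and 16 FPKM in its UUO kidneys, a change of 3.12 beside 1.58 in wild type (difference 1.54, adjusted p 0.0287). Pf4, a platelet and macrophage chemokine, changed by 3.09 beside 1.59 (difference 1.5, adjusted p 0.0458). Tie1, Arhgef15 and Pf4 were chosen after their values were seen.

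Over the whole endothelial list of 21 genes tested, 13 were higher in Acot12-/- UUO and none lower (median 1.11, with 17 higher without CL replicate 2), beside 3 higher and 5 lower (median -0.19) in wild type. In the knockout 1 of the 21 entered the test only through UUO, and 10 of the 18 with at least 1 FPKM in every CL library were higher. Tie1 was the 1 member called by the test of the difference, 5 were with the mouse as a block (Egfl7, Pecam1, Plvap, Robo4 and Tie1), and 18 of 21 were under 0.05 without adjustment. The mean log2(FPKM + 1) of the list was 2.13, 2.35 and 2.49 in the knockout's CL kidneys and 3.19, 3.41 and 3.34 in its UUO kidneys, against 3.18, 3.10 and 3.51 in wild type CL and 3.12, 3.02 and 3.24 in wild type UUO. All 3 Acot12-/- CL libraries were under all 3 wild type CL libraries for 19 of the 21 genes, where 1188 of 12818 genes (9.27%) were so and 1137 (8.87%) were the other way. In UUO the Acot12-/- libraries were all above wild type for 6 of the 21 and all below for 1, where 722 genes (5.63%) were all above and 820 (6.40%) all below. Pecam1, the junction protein CD31, was at 4.74, 8.12 and 7.03 FPKM in the knockout's CL kidneys and 16.5, 22.7 and 19.1 FPKM in its UUO kidneys, and at 14.7, 13.0 and 19.9 FPKM and 17.5, 15.3 and 19.8 FPKM in wild type. It rose by 1.44 (SE 0.24, adjusted p 0.0019) in the knockout, and the difference to wild type, 1.29, was not called (adjusted p 0.11, or 0.0384 with the mouse as a block). Aplnr, the apelin receptor, rose most in the list (1.92, SE 0.21, adjusted p 0.000315).

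**Figure D5:**
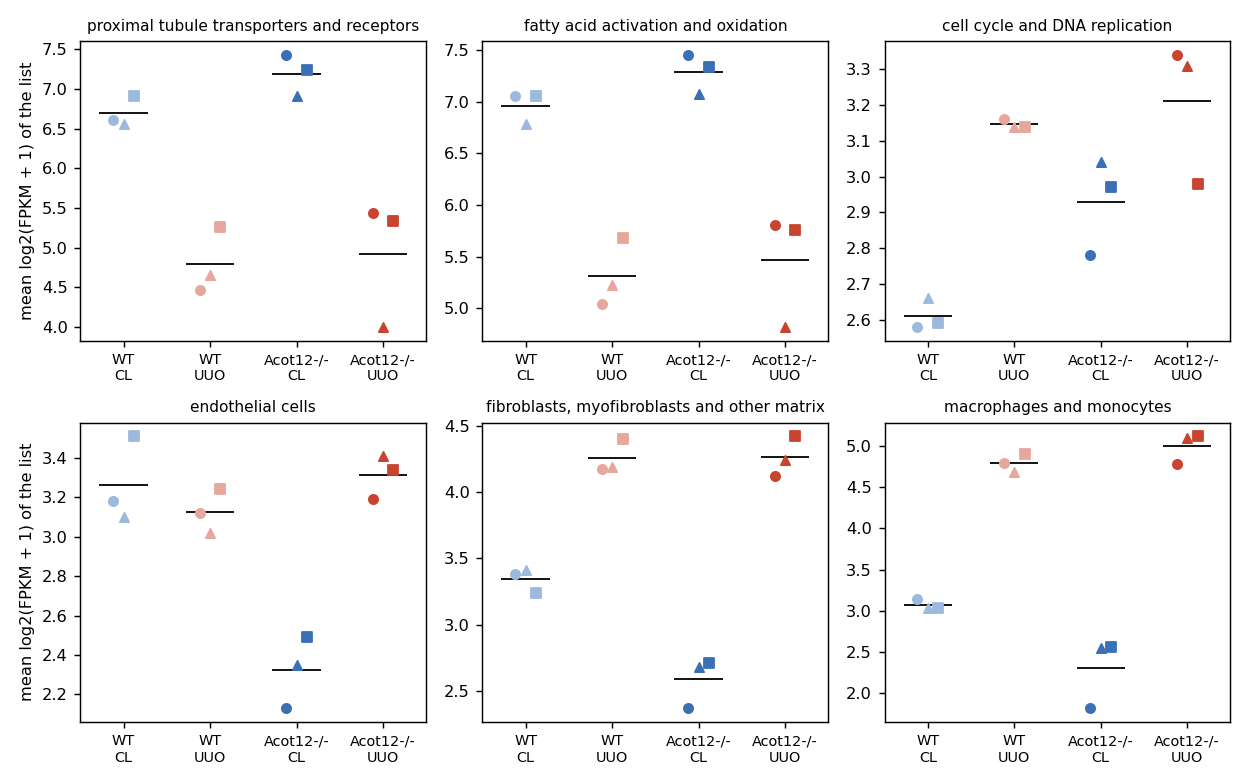
Mean log2(FPKM + 1) of the genes of 6 lists (y axis, its range set per panel and not from 0) in wild type and Acot12-/- CL and UUO libraries (x axis), with points for replicates 1 (circle), 2 (triangle) and 3 (square) and a bar at the mean of 3. Acot12-/- CL lies under wild type CL for endothelial (2.13 to 2.49 against 3.10 to 3.51), fibroblast and macrophage genes, while the UUO groups of the genotypes lie close to each other in these 3 lists.

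Several other stromal and leukocyte lists were low in the knockout's CL kidneys. For 28 of 44 fibroblast and matrix genes, 20 of 35 macrophage genes, 12 of 16 T cell genes and 12 of 22 collagens, all Acot12-/- CL libraries were below all wild type CL libraries. Over all genes the share was 9.27%. This was so for 2 of 5 neutrophil genes and 0 of 3 B cell and plasma cell genes, whose mean level was 0.95, 1.57 and 1.73 in the knockout's CL kidneys and 1.31, 1.04 and 1.58 in wild type CL. The mean level of the fibroblast list was 2.37, 2.68 and 2.71 in Acot12-/- CL and 3.38, 3.41 and 3.24 in wild type CL, and 4.12, 4.24 and 4.42 against 4.17, 4.19 and 4.40 in UUO. The macrophage list was at 1.82, 2.55 and 2.56 in Acot12-/- CL and 3.14, 3.04 and 3.03 in wild type CL, and at 4.78, 5.10 and 5.12 against 4.80, 4.68 and 4.90 in UUO. The median change was therefore 1.60 in the knockout beside 0.95 in wild type for fibroblast genes and 2.84 beside 1.77 for macrophage genes. The T cell list was lower in UUO as well, at 2.53, 1.99 and 2.22 in Acot12-/- against 2.72, 2.76 and 2.75 in wild type. In UUO 7 of its 16 genes were all below wild type and 1 all above, beside 6.40% and 5.63% of all genes. In the opposite direction, all Acot12-/- CL libraries were above all wild type CL libraries for 14 of 43 proximal tubule transporters, 18 of 48 fatty acid oxidation genes and 19 of 46 cell cycle genes. Over all genes this share was 8.87%. Of all lists, the endothelial list (Tie1) and the lipid list (Fabp4) each held 1 gene that passed the test of the difference, and the others held none. With the mouse as a block 5 macrophage genes passed it, C1qa among them, 2 genes each passed it in the chemokine, complement, fibroblast and interferon lists, and 1 each in the T cell, AP-1, p53 and proximal tubule transporter lists. Ccl5 was the T cell gene (difference 1.77, adjusted p 0.125, or 0.038 with the mouse as a block). The genotypes came from different mice, so genotype and any other difference between those mice or their tissue pieces cannot be told apart.

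Few genes changed in opposite directions. Of the genes called higher in the knockout 16 were called lower in wild type, Fabp4, Shank3, Tmem204, Unc45b and Ushbp1 among them, which also passed the test of the difference. The call in the knockout was lost for Shank3 with GC correction and for Tmem204 without CL replicate 1 or any 1 UUO replicate. The 1 gene called lower in the knockout and higher in wild type was Slc3a2, the heavy chain of amino acid exchangers, with 112, 65.5 and 94.8 FPKM in the knockout's CL kidneys and 49.5, 36.2 and 53.7 FPKM in its UUO kidneys (-0.94, SE 0.27, adjusted p 0.0251). Its change in wild type was 0.54, and the difference of -1.48 was not called (adjusted p 0.09; 0.0311 with the mouse as a block). The call of Slc3a2 in the knockout was lost with equal totals and without CL replicate 1, CL replicate 3, UUO replicate 1 or UUO replicate 2.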

How the data were processed

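Total RNA from kidney cortex was sequenced after directional library preparation (NEBNext Ultra II) on a NovaSeq instrument, and trimming, mapping and normalization were done for the authors by a service provider. The deposited FPKM are 1 value per gene symbol and library; the files do not name the unit, which was derived from the low values (steps inversely proportional to transcript length). Per the labels the build is mm10 and edgeR was used, with no version, and the aligner is not given in the sources used here.

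Of 23183 symbols 22797 were found in GENCODE vM21. Genes needed at least 1 FPKM in at least 3 of 6 libraries, and 8 genes (28 over 12 libraries) listed at 0 beside at least 10 FPKM in the same group were left out. A gene under 1 FPKM in every library of 1 group could thus only be higher in the other group. The fit was limma 3.58.1 in R 4.3.3 on log2(FPKM + 1) with a variance trend, 3 UUO against 3 CL libraries. Calls needed an adjusted p (Benjamini-Hochberg, over all genes tested) under 0.05. No count model was run on FPKM. The difference between genotypes is the interaction in a fit of all 12 libraries. Tested on simulated data, the fit recovered 19% of genes changed 2-fold and 71% of those changed 4-fold. In that simulation only a small part of the genes changed, none of them at low FPKM. Far more genes were called here, so these rates do not give the power of this comparison.

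Replicate numbers were taken as kidneys of 1 mouse. In Acot12-/-, deviations from group means correlated at 0.327, 0.187 and 0.319 between kidneys of the same number and at -0.175 to -0.077 between different numbers. In wild type these values were 0.133, 0.359 and 0.345 for the same number and -0.368 to 0.154 for different numbers. The wild type pair numbered 1 (0.133) thus lay under CL replicate 2 with UUO replicate 1 (0.154). Pairing is less clear in wild type, and the block test of the difference between genotypes relies on it. Named genes are Acot12, the 10 largest rises and falls without overlap, the 5 highest means per group, the largest rise and fall and up to 3 defining members per list, the first 5 genes of the test between genotypes and the 5 genes that varied most between mice; others are marked. The members and lists were chosen with earlier results of these data known. Lists are described by counts and medians and carry no test.

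The alternatives tried were testing every gene without the filter, a smaller pseudocount (0.1), keeping the genes listed at 0, scaling to equal totals or by median-ratio size factors, the mouse as a block, array weights, correction for GC content, no variance trend, a fit of all 12 libraries, and leaving out each library or both kidneys numbered 2. Some genes that the rule names are not reported here.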

Additional observations from a re-analysis of the deposited data

Results flagged for a closer look

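The test of the difference between genotypes called 14 genes, and in each UUO minus CL was higher in Acot12-/- than in wild type mice. On the log2 scale the difference was 2.30 for Fabp4, 1.62 for Shank3, 1.54 for Pdlim1, 1.54 for Ushbp1, 1.51 for 1810011O10Rik, 1.38 for Tie1, 1.37 for Arap3 (adjusted p 0.0287 for each), 1.23 for Unc45b (adjusted p 0.0316), and 1.5 for Pf4, 1.46 for Tmem204, 1.41 for Klhl6, 1.33 for Prelp, 1.30 for Hmha1 and 1.30 for Arhgef15 (adjusted p 0.0458 for each). With limma, no gene was called without any 1 of the 6 wild type libraries, nor without CL replicate 1, UUO replicate 2 or UUO replicate 3 of the knockout (1025 to 1274 genes at an unadjusted p under 0.05). Without CL replicate 2, 916 genes were called, 520 with UUO minus CL higher in Acot12-/- and 396 with it lower.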

How the results depend on the processing

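With equal totals 4629 genes were higher and 1160 lower, with array weights (which down-weight CL replicate 2, and whose fit stopped before convergence) 3983 and 4566, and with at least a 2-fold change 1709 and 1599. Without 1 library the higher count ran from 1891 to 3235 and the lower count from 1570 to 3780, lowest without UUO replicate 2 and highest without CL replicate 2. The test of the difference between genotypes called 83 genes with the replicate block and 0 to 916 without 1 library. Tpt1 (-0.25 as reported, not called) was 0.30 with equal totals and 0.09 with array weights. Of the changes of named genes, 965 of the comparisons with another setting kept direction and side of the threshold, 16 passed it, 7 no longer did and 2 reversed; without 1 library these counts were 614, 2 and 14 with none reversed. In the test of UUO against CL the replicate block changed no call of a named gene and moved no count of a list by over 1.5 times other than those printed beside their results. The depth of CL libraries limits low genes.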
